A study of Mus musculus with 12 samples.

Results

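The genes described here encode mechanically gated and acid-gated ion channels of sensory neurons together with a modulator of such channels: Piezo1, Piezo2, Asic1, Asic2, Asic3, Stoml3, Tmem63a, Tmem63b and Tmem150c. They were chosen by name for what they encode, with earlier results of these data known. All 9 were found among the 48795 gene IDs of the count table. Of these 9 genes, 8 passed the filter on low counts and were among the 16831 genes tested, and Stoml3 did not pass it.

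RNA-seq was done on primary cultures of mouse dorsal root ganglia (DRG), the ganglia that hold the cell bodies of touch, pain and position-sensing neurons. All cultures came from wild-type mice, given as C57/Bl6 wt, and no genetic change, age or sex is named in the labels. There were 3 groups of 4 libraries: untransfected cultures, cultures that received a control antisense oligonucleotide (ASO) at 50 nM, and cultures that received a mix of ASOs against GI-SINE RNA, an RNA of the B2 family of short interspersed repeats, also labelled 50 nM. Each of 4 mice gave 1 whole-ganglion culture that was divided among the 3 conditions, so mouse 1 to mouse 4 are the replicates and each mouse is present in every group. The cultures hold glia, fibroblasts and vascular cells as well as neurons. No group was taken through transfection without an ASO, so the transfection procedure and the control ASO cannot be told apart. GI-SINE RNA itself is not a row of a gene table and was not analysed here.

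Piezo channels open when the membrane is stretched or indented and let cations in; Piezo2 is the main transducer of light touch and of limb position in DRG neurons, while Piezo1 is best known from endothelium and other non-neuronal cells. Acid-sensing ion channels (ASICs) are sodium channels of the degenerin family that open when the outside pH falls, and their subunits combine into mixed channels. Tmem63a and Tmem63b belong to a family of stretch- and osmolarity-activated channels related to the OSCA channels of plants.

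Libraries held 14864622 to 22704267 counts, of which 15.7 to 19.4% lay in 3 loci that collect ribosomal RNA reads. Levels are given as CPM, the count scaled to a common library total with TMM factors, and levels of different genes are compared only as CPM per kilobase of exon (RPKM). Differences are log2 fold changes with standard errors from edgeR's quasi-likelihood fit with mouse as a block, and a gene was called at a Benjamini-Hochberg adjusted p under 0.05 over all 16831 genes. The ASO mix library of mouse 4 stood apart from the other ASO mix libraries on the first principal component (25.9 against 64.4 to 72.3, with control ASO libraries at -15.3 to 0.3 and untransfected ones at -58.2 to -44.7). Without that library, 7 of the 8 tested channel genes were still called in the ASO mix against the control ASO, in the same directions.

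In untransfected cultures the channel genes spanned a wide range of levels per exon length. Tmem63b stood highest at 30.7 ± 1.41 RPKM (SD, n = 4), at percentile 91.8 of all tested genes, and was followed by Asic2 at 23.6 ± 3.17 RPKM and Piezo2 at 19.4 ± 3.87 RPKM. Asic3 was at 11.4 ± 2.18 RPKM, Tmem150c at 7.89 ± 0.824 RPKM and Piezo1 at 4.95 ± 0.776 RPKM. Asic1 at 2.28 ± 0.195 RPKM and Tmem63a at 2.06 ± 0.578 RPKM lay below the middle of the tested genes, at percentiles 40.6 and 38.7. Stoml3 was near 0. The ranges of Asic2 and Piezo2, of Asic3 and Tmem150c, and of Asic1 and Tmem63a overlapped, and those of the other neighbours did not. Within a library, Asic3 was above Tmem150c in 4 of 4 cases, Asic2 above Piezo2 in 3 and Asic1 above Tmem63a in 3. In ASO mix cultures Piezo2 (28.3 ± 7.30 RPKM) came before Asic2 (20.9 ± 0.731 RPKM) and Asic1 (4.42 ± 0.642 RPKM) came before Piezo1 (1.75 ± 0.542 RPKM). The ranges of Piezo2 and Asic2 overlapped there and those of Asic1 and Piezo1 did not.

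The comparison of ASO mix with control ASO asks what the GI-SINE ASOs changed beyond what a control oligonucleotide does. Of the 8 tested channel genes 7 were called, where 56.2% of all tested genes were called: 5 were higher (27.3% of all genes) and 2 were lower (28.8%). Piezo1 and Tmem63a fell, and Piezo2, Asic1, Asic3, Tmem63b and Tmem150c rose, the rise of Tmem63b being lost when libraries were scaled by pan-neuronal markers. Asic2 was not called. The groups of 4 did not overlap in CPM for 6 genes, which was also the case for 38.8% of all tested genes. The median log2 fold change of the 8 genes was 0.33, beside -0.03 over all genes. Since 56.2% of all genes were called, the count of 7 is no sign of an effect particular to the channel genes.

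**Figure D1:**
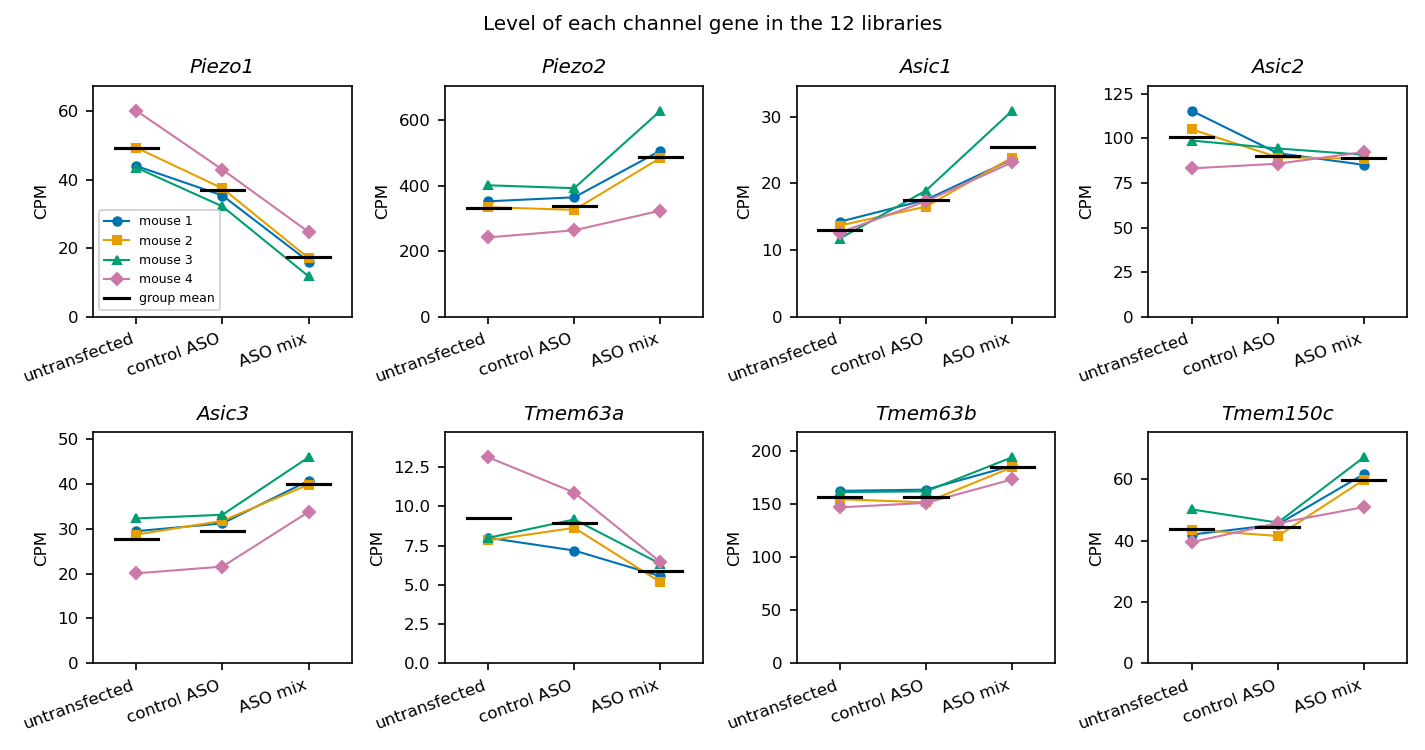
Level in CPM (vertical axis from 0) of the 8 tested channel genes in the 12 libraries, by group, with a line joining the 3 cultures of each mouse and a black bar at the group mean. Piezo1 goes down from group to group in every mouse, while Piezo2, Asic1, Asic3, Tmem63b and Tmem150c are highest in the ASO mix culture of every mouse.

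Piezo1 (ENSMUSG00000014444, GRCm38 chr8:122481698-122551329, minus strand) fell in both steps. Its levels in mice 1 to 4 were 44.0, 49.3, 43.5 and 60.1 CPM in untransfected cultures, 35.3, 37.4, 32.2 and 42.9 CPM with the control ASO, and 16.1, 17.1, 11.8 and 24.7 CPM with the ASO mix. The 3 groups did not overlap, and mouse 4 was highest in each of them. With the ASO mix the level was 0.462 times that with the control ASO (log2 fold change -1.11 ± 0.087, adjusted p 3.22e-08, lower in 4 of 4 mice). With the control ASO it was 1.33-fold lower than in untransfected cultures (-0.41 ± 0.081, adjusted p 0.00112, lower in 4 of 4 mice), a call that was lost without the mouse block (adjusted p 0.155). Against untransfected cultures the ASO mix level was 2.87-fold lower (-1.52 ± 0.086, adjusted p 1.04e-10).

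A part of Piezo1 lies opposite another gene. Of its 9935 exon bases, 2441 (24.6%) are also exon of Ctu2, a tRNA thiolation gene on the other strand. The library kit keeps strand, but how strand was treated in counting is not given in the sources used, and the Piezo1 count is uncertain to that extent. Ctu2 moved the other way: it was at 13.8 ± 0.489 CPM in untransfected cultures, 13.7 ± 0.473 CPM with the control ASO and 26.3 ± 5.05 CPM with the ASO mix (log2 fold change 0.94 ± 0.10 against the control ASO, adjusted p 8.72e-07).

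Piezo2 (ENSMUSG00000041482, chr18:63010213-63387183, minus strand) rose with the ASO mix and was not called between control ASO and untransfected cultures. Its levels in mice 1 to 4 were 352, 334, 401 and 242 CPM in untransfected cultures, 364, 326, 392 and 264 CPM with the control ASO, and 506.5, 484, 628 and 324 CPM with the ASO mix. Mouse 4 was lowest in every group, and its ASO mix level lay within the control ASO range, so the groups overlapped although each mouse's own level rose. The log2 fold change of ASO mix against control ASO was 0.51 ± 0.055 (1.42-fold, adjusted p 7.54e-07, higher in 4 of 4 mice), and the rise within a mouse ran from 0.30 in mouse 4 to 0.68 in mouse 3. Between control ASO and untransfected cultures the log2 fold change was 0.03 ± 0.054 (adjusted p 0.762, higher in 2 of 4 mice), and with length and GC trends removed it was 0.22 and called (adjusted p 0.0334).

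The balance between the 2 Piezo genes therefore moved within each library, a quantity that does not depend on how libraries are scaled. The ratio of Piezo2 to Piezo1 RPKM was 4.06 ± 1.29 (SD, n = 4) in untransfected cultures, 5.41 ± 1.48 with the control ASO and 18.3 ± 9.63 with the ASO mix. The ASO mix libraries, at 7.58 to 30.9, all lay above the control ASO libraries, at 3.56 to 7.06. Within a mouse the log2 ratio was higher with the ASO mix than with the control ASO by 1.63 ± 0.43 and higher with the control ASO than without transfection by 0.43 ± 0.12, in 4 of 4 mice each. The exact sign-flip permutation test over mice, two-sided, gave p = 0.125 for each, the smallest p that 4 mice allow, and 0.125 after Benjamini-Hochberg adjustment over the 12 proportions compared.

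**Figure D2:**
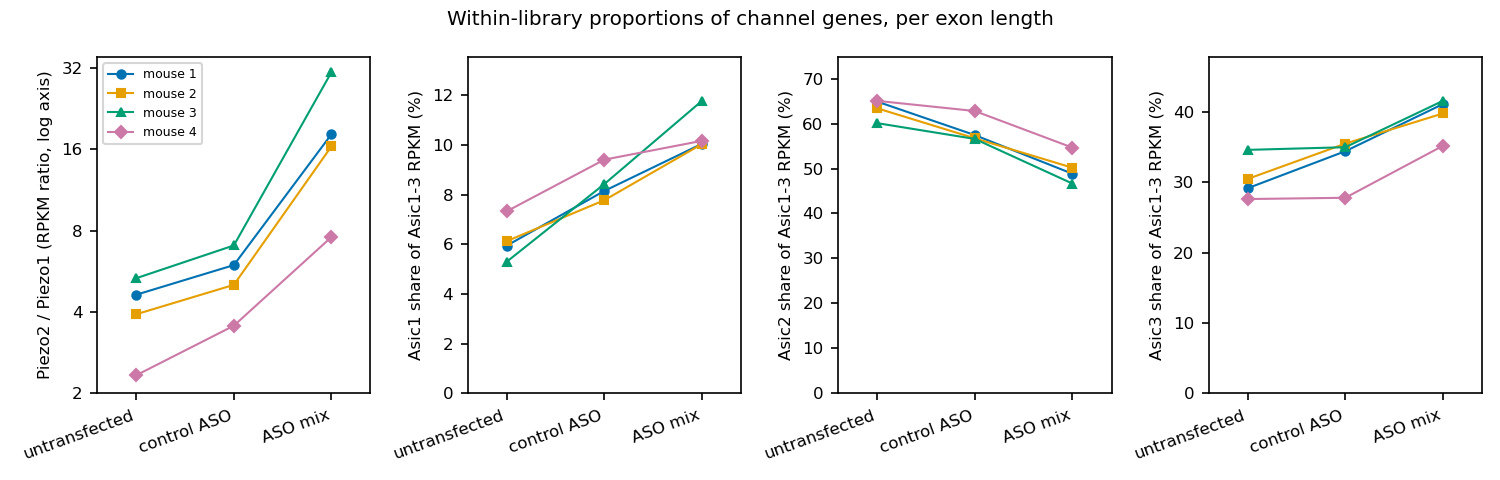
Ratio of Piezo2 to Piezo1 RPKM (log axis) and the share of each of Asic1, Asic2 and Asic3 in their summed RPKM (percent, axes from 0), by group, with a line for each mouse. The Piezo ratio of every mouse is highest in the ASO mix culture, and the Asic2 share of every mouse falls as those of Asic1 and Asic3 grow.

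Among the ASICs, Asic1 and Asic3 rose with the ASO mix and Asic2 did not pass the test. Asic1 (ENSMUSG00000023017, chr15:99670368-99701130, plus strand), the subunit with the widest neuronal expression, rose in both steps. Its levels in mice 1 to 4 were 14.2, 13.7, 11.7 and 12.6 CPM in untransfected cultures, 17.5, 16.5, 18.9 and 17.3 CPM with the control ASO, and 23.6, 23.9, 30.9 and 23.1 CPM with the ASO mix. The 3 groups did not overlap. The log2 fold change was 0.53 ± 0.092 for ASO mix against control ASO (adjusted p 9.91e-05) and 0.42 ± 0.096 for control ASO against untransfected (adjusted p 0.00379), and each held in 4 of 4 mice. The ASO mix level was 1.93-fold that of untransfected cultures (0.94 ± 0.094, adjusted p 1.16e-07).

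Asic3 (ENSMUSG00000038276, chr5:24413392-24417835, plus strand) is the subunit most typical of sensory neurons, where it gives a sustained acid response. Its levels in mice 1 to 4 were 29.5, 28.7, 32.3 and 20.1 CPM in untransfected cultures, 31.2, 31.8, 33.1 and 21.6 CPM with the control ASO, and 40.7, 39.9, 46.0 and 33.8 CPM with the ASO mix. All ASO mix libraries lay above all control ASO libraries, the margin being narrow because ASO mix mouse 4 was near control ASO mouse 3. The log2 fold change of ASO mix against control ASO was 0.45 ± 0.068 (1.37-fold, adjusted p 2.38e-05, higher in 4 of 4 mice). That of control ASO against untransfected was 0.10 ± 0.069 and was not called (adjusted p 0.35), though the level was higher in 4 of 4 mice.

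Asic2 (ENSMUSG00000020704, chr11:80880169-81968457, minus strand), whose products form mixed channels with the other subunits, was the most abundant of the 3 per exon length. Its levels in mice 1 to 4 were 115.5, 105, 98.8 and 83.2 CPM in untransfected cultures, 91.7, 89.4, 94.3 and 85.8 CPM with the control ASO, and 85.1, 88.5, 90.8 and 92.3 CPM with the ASO mix. The groups overlapped, and mouse 4 moved against the other mice. The log2 fold change was -0.02 ± 0.072 for ASO mix against control ASO (adjusted p 0.867), -0.15 ± 0.072 for control ASO against untransfected (adjusted p 0.136) and -0.17 ± 0.072 for ASO mix against untransfected (adjusted p 0.0515). Leaving out mouse 4 brought the last 2 below the threshold, at -0.23 (adjusted p 0.00482) and -0.28 (adjusted p 0.000199).

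As a share of the summed RPKM of the 3 subunits, Asic2 went from 63.4% ± 2.30 (SD, n = 4) in untransfected cultures to 58.4% ± 2.96 with the control ASO and 50.1% ± 3.38 with the ASO mix. Asic3 took 30.5%, 33.2% and 39.4% in the same order, and Asic1 took 6.17%, 8.44% and 10.5%. Between control ASO and ASO mix the Asic2 share of a mouse fell by 8.31 ± 1.40 percentage points, in 4 of 4 mice, while the Asic2 level itself was not called. The exact sign-flip permutation p was again 0.125 for each share and comparison.

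Stoml3 (ENSMUSG00000027744, chr3:53488653-53508502, plus strand) encodes a stomatin-like protein that tunes mechanically gated channels in mouse mechanoreceptors. It was scarcely counted: in mice 1 to 4 the counts were 0, 2, 0 and 1 in untransfected cultures, 1, 2, 2 and 1 with the control ASO, and 0, 2, 3 and 0 with the ASO mix. No library had more than the 3 counts taken as the limit that a count of 0 allows, which is 0.126 to 0.185 CPM depending on the library and covers counting error only. No difference between groups was detectable at this depth, and no fold is given.

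Of the 2 Tmem63 channels, one fell and the other rose. Tmem63a (ENSMUSG00000026519, chr1:180942344-180975112, plus strand) was at 8.0, 7.83, 7.99 and 13.1 CPM in mice 1 to 4 of the untransfected group, at 7.18, 8.63, 9.16 and 10.9 CPM with the control ASO, and at 5.55, 5.17, 6.34 and 6.45 CPM with the ASO mix. The ASO mix libraries all lay below both other groups, which overlapped each other. It was 1.51-fold lower with the ASO mix than with the control ASO (log2 fold change -0.60 ± 0.12, adjusted p 0.000395, lower in 4 of 4 mice), and the control ASO differed from untransfected cultures by -0.04 ± 0.114 (adjusted p 0.855).

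Tmem63b (ENSMUSG00000036026, chr17:45660171-45686905, minus strand) was at 163, 155, 161.5 and 147 CPM in mice 1 to 4 of the untransfected group, at 164, 152, 162 and 151 CPM with the control ASO, and at 186, 185, 194 and 173.5 CPM with the ASO mix. The untransfected and control ASO values were nearly alike and the ASO mix values lay above them. The log2 fold change of ASO mix against control ASO was the smallest among the called channel genes, 0.23 ± 0.047 (1.18-fold, adjusted p 0.000438, higher in 4 of 4 mice). Scaling by pan-neuronal markers turned it to -0.02 (adjusted p 0.722), and scaling by library size alone left 0.11 (adjusted p 0.0549).

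Tmem150c (ENSMUSG00000050640, chr5:100077872-100159808, minus strand), also called tentonin 3, has been reported to contribute to slowly adapting mechanically activated currents, a role that is debated. Its levels in mice 1 to 4 were 42.0, 43.6, 50.2 and 39.5 CPM in untransfected cultures, 45.3, 41.5, 45.9 and 45.7 CPM with the control ASO, and 61.7, 59.9, 67.2 and 50.9 CPM with the ASO mix. The ASO mix libraries lay above all 8 others, by the least in mouse 4. The log2 fold change was 0.42 ± 0.068 for ASO mix against control ASO (1.34-fold, adjusted p 4.64e-05, higher in 4 of 4 mice) and 0.03 ± 0.069 for control ASO against untransfected (adjusted p 0.793).

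**Figure D3:**
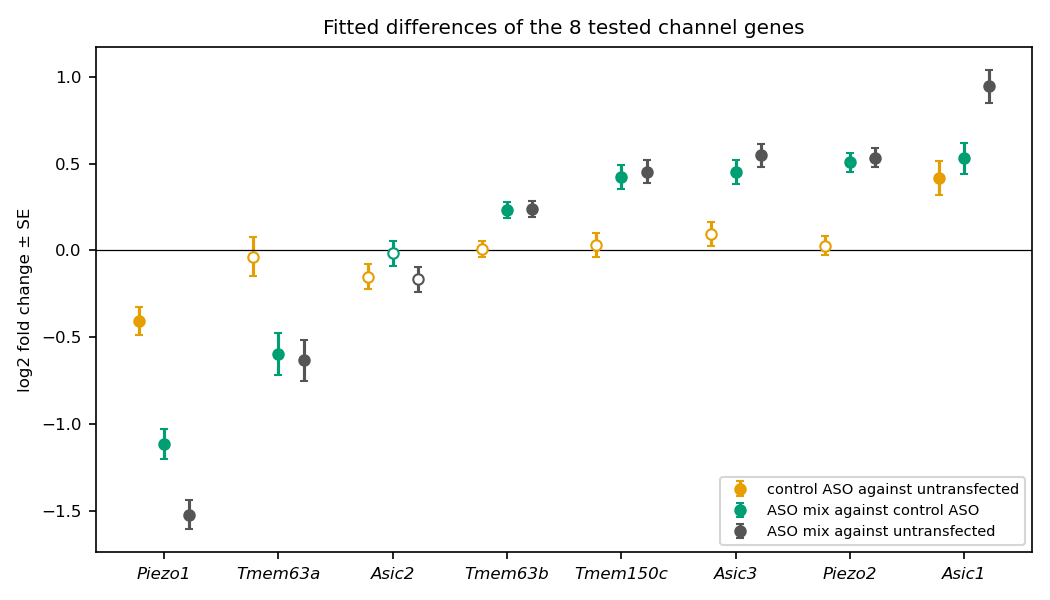
Fitted log2 fold change with its standard error (bars) of the 8 tested channel genes in the 3 comparisons, with filled points for adjusted p under 0.05 and open points otherwise. Piezo1 lies lowest and Asic1 highest in the comparison with untransfected cultures, and these are the only 2 with filled points for control ASO against untransfected.

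In control ASO against untransfected cultures 2 of the 8 tested channel genes were called, Asic1 higher and Piezo1 lower, where 24.2% of all tested genes were called (10.5% higher and 13.7% lower; 4081 genes, and 2540 without mouse 3). Their groups were also the only 2 that did not overlap, as was the case for 23.4% of all genes, and the median log2 fold change of the 8 was 0.02 beside 0.03 over all genes. In ASO mix against untransfected cultures 7 were called, 5 higher and 2 lower, where 61.2% of all genes were called (30.1% higher and 31.1% lower), and the groups of 6 did not overlap (46% of all genes). Piezo2, Asic3, Tmem63a, Tmem63b and Tmem150c had log2 fold changes of 0.53 ± 0.054, 0.55 ± 0.068, -0.63 ± 0.12, 0.24 ± 0.047 and 0.45 ± 0.068 there, with adjusted p from 1.55e-07 to 0.00025. These 3 comparisons share libraries, so their values are set side by side and not counted as separate evidence. Scaling by pan-neuronal markers lowered the median of all genes by 0.25 in ASO mix against control ASO, and the share of called genes that were higher went from 48.7% to 21.3%; with library size alone it was 34%. On that neuronal scale Piezo1 was at -1.37, Piezo2 at 0.25, Asic1 at 0.27, Asic3 at 0.20 and Tmem150c at 0.17, all still called. In control ASO against untransfected the share was 43.5%, and 19.6%, 55.4% and 57.7% with pan-neuronal scaling, library size alone and length and GC trends removed; in ASO mix against untransfected, 49.2% went to 20.6% with pan-neuronal scaling.

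The windows around the start sites of the 2 genes that fell and of the 2 ASICs that rose show how these promoters differ in base composition. Each is 300 bases of RefSeq on GRCm38.p6, 250 before the start and 50 after it, on the strand of the gene, with CG dinucleotides in capitals. They are, in order, chr8:122551280-122551579 (minus), chr1:180942268-180942567 (plus), chr15:99691974-99692273 (plus) and chr5:24413201-24413500 (plus).
Piezo1: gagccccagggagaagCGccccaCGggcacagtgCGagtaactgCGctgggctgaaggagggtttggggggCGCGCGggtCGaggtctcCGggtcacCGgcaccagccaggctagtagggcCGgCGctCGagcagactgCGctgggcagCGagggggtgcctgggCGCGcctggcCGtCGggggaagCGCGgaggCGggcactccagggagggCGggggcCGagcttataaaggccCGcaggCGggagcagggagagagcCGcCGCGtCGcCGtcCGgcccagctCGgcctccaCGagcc
Tmem63a: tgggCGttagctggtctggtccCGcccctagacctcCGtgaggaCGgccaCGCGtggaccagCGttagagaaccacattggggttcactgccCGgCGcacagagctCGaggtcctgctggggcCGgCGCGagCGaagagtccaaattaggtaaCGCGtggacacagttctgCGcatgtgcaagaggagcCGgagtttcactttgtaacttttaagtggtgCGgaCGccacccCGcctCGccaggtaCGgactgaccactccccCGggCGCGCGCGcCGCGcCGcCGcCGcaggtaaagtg
Asic1: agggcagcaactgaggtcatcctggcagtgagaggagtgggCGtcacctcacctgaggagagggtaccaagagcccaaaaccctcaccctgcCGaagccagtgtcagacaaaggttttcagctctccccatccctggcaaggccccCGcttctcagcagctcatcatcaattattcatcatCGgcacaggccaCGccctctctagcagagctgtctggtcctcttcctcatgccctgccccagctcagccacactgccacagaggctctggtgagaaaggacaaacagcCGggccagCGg
Asic3: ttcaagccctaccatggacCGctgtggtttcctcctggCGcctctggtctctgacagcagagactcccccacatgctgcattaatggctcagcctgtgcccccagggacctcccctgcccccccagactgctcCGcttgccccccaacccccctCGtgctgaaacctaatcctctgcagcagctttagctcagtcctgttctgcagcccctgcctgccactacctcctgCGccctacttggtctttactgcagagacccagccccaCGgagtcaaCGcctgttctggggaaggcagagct
The Piezo1 and Tmem63a windows held 34 and 33 CG dinucleotides at 75% and 65% GC, and the Asic1 and Asic3 windows held 7 each at 59.7% and 62% GC, where the median of 32851 RefSeq windows was 7 at 52.7% GC. The contrast did not follow the direction of change over the other genes: Tmem63b, which rose, held 34, and the 3 windows of Tmem150c, which also rose, held 37, 21 and 13. The letters TATAAA, searched on both strands, lay in the Piezo1 window 24 bases before the start and in 13.6% of all windows. GGGCGG, also on both strands, lay in the Piezo1 and Tmem63a windows, 40 and 229 bases before the start, and in 35.7% of all windows. The Asic1 window belongs to a start site 21856 bases inside the gene as GENCODE draws it. Of the 9 genes 8 had a window in the table, and Piezo2 had none.

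Other channels and receptors of the same modalities were called in both directions with the ASO mix, as were 27.3% (higher) and 28.8% (lower) of all tested genes. Of 16 other mechanosensitive channel genes 14 were tested, of which 4 were higher and 7 lower against the control ASO, with a median log2 fold change of -0.23 beside -0.03 over all genes. Those with the smallest p were Pkd1 at -0.58 ± 0.07 and Pkd2 at -0.86 ± 0.11, the polycystins of primary cilia, Lrrc8a at 0.39 ± 0.07, the obligate subunit of volume-regulated anion channels, and Tmem87a at -0.35 ± 0.06, whose channel function is debated. Their adjusted p ran from 3.02e-06 to 0.000108. Against untransfected cultures the control ASO changed 1 of the 14 upward and 1 downward, with a median of 0.05, beside 10.5% and 13.7% of all tested genes. The gene changed downward was Pkd2 at -0.79 ± 0.10 (adjusted p 1.09e-05). Pkd2 thus fell in both steps, as Piezo1 did.

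Of 14 other acid sensors 8 were tested; with the ASO mix 2 were higher and 3 lower than with the control ASO, with a median of 0.12. Tmem206, the proton-activated chloride channel, was at 13.2 ± 1.86 CPM against 21.3 ± 2.02 CPM (log2 fold change -0.70 ± 0.09, adjusted p 6.04e-06). Trpv1, the capsaicin receptor, was at 95.1 ± 24.6 CPM against 53.7 ± 7.46 CPM (0.81 ± 0.10, adjusted p 3.09e-05). The proton channel gene Otop1 was called higher at under 1 CPM (2.09 ± 0.39, adjusted p 0.000202). Between control ASO and untransfected cultures edgeR called 0 of the 8, with 1 at an unadjusted p under 0.05, Gpr132 at 0.0375. Of all tested genes 24.2% were called in that comparison. Asic4 and Asic5, the remaining ASIC genes, did not pass the filter, with at most 3 counts and 1 count in a library.

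Of 10 genes for partners and modulators of these channels, all tested, 4 were higher and 2 lower with the ASO mix, with a median of 0.10. Over all tested genes 56.2% were called there, 27.3% higher and 28.8% lower. Mdfic, whose product has been described as an auxiliary subunit of Piezo channels, fell from 3.65 ± 1.04 CPM with the control ASO to 1.02 ± 0.440 CPM with the ASO mix (log2 fold change -1.86 ± 0.21, adjusted p 1.42e-06), and it was also lower with the control ASO than in untransfected cultures (-0.80 ± 0.16, adjusted p 0.00147). The stomatin family genes Stoml1 and Stom, whose products modulate ASICs, rose by 0.40 ± 0.05 (adjusted p 6.62e-06) and 0.43 ± 0.07 (adjusted p 4.54e-05). Lin7b, a scaffold protein gene, rose by 1.29 ± 0.19 from a low level (adjusted p 2.24e-05). The control ASO itself changed 2 of the 10 upward, Stoml1 (0.18 ± 0.05, adjusted p 0.0226) and Pick1 (0.24 ± 0.08, adjusted p 0.0284), and 1 downward, Mdfic. Over all tested genes 10.5% were higher and 13.7% lower in that comparison.

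**Figure D4:**
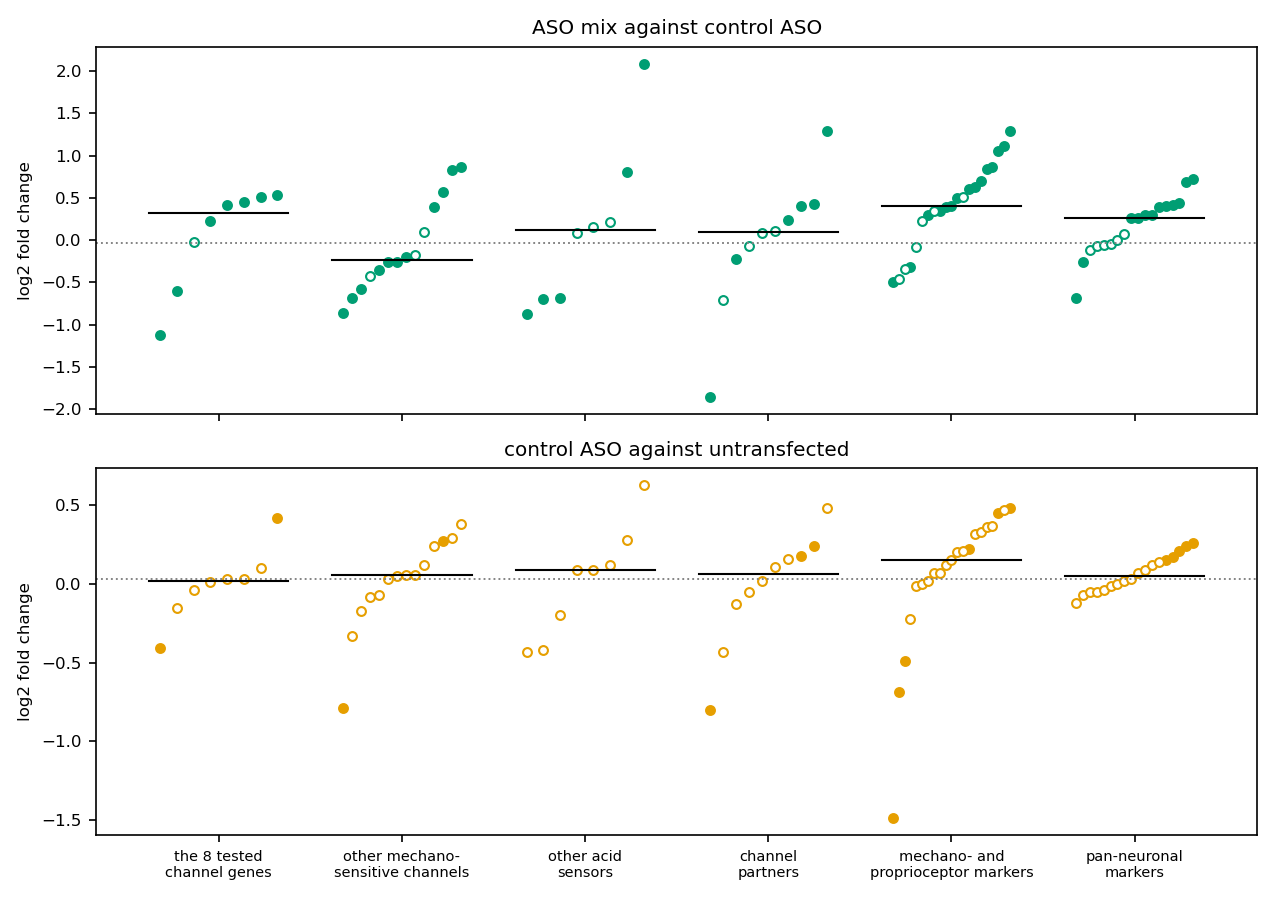
Fitted log2 fold change of each tested gene in 6 lists, for ASO mix against control ASO (upper panel) and control ASO against untransfected (lower panel, different scale), with filled points for adjusted p under 0.05. Black bars are list medians and the dotted line is the median of all tested genes: the mechanoreceptor and proprioceptor markers have the highest median in the upper panel, 0.41.

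Markers of the neurons that use Piezo2 were called higher more often than lower with the ASO mix, where 27.3% of all genes were higher and 28.8% lower. Of 21 markers of mechanoreceptors and proprioceptors, the DRG neurons for touch and limb position, 13 were higher and 2 lower than with the control ASO, with a median log2 fold change of 0.41. The 4 with the smallest p were the potassium channel gene Kcns1 (1.29 ± 0.13, adjusted p 5.55e-07), the GDNF co-receptor gene Ret (0.35 ± 0.05, adjusted p 9.45e-06), the T-type calcium channel gene Cacna1h (0.50 ± 0.08, adjusted p 0.000103) and Th, a marker of low-threshold C fibres (0.87 ± 0.12, adjusted p 0.000178). Their summed level was 1530 to 2035 CPM in untransfected cultures, 1719 to 2130 CPM with the control ASO and 2057 to 2549 CPM with the ASO mix. Ret, which other DRG neurons also express, made up most of that sum, at 1011 ± 186, 1056 ± 136 and 1351 ± 182 CPM in the same order. The control ASO changed 3 of the 21 upward and 3 downward, with a median of 0.15, beside 10.5% and 13.7% of all tested genes.

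With the ASO mix 10 of 18 pan-neuronal markers were called higher than with the control ASO and 2 were called lower, with a median of 0.26. Over all tested genes 27.3% were higher and 28.8% lower. The synaptic vesicle gene Syp was at 0.69 ± 0.05 (adjusted p 3.44e-08), Uchl1 at 0.44 ± 0.04 (adjusted p 3.32e-07), the microtubule gene Map2 at -0.68 ± 0.08 (adjusted p 1.64e-06) and the stathmin gene Stmn2 at 0.40 ± 0.05 (adjusted p 2.05e-06). The summed level ran from 8291 to 11420 CPM, from 9330 to 11670 CPM and from 10930 to 13910 CPM in untransfected, control ASO and ASO mix cultures. The control ASO changed 5 of 18 upward and 0 downward, beside 10.5% and 13.7% of all tested genes. In a bulk library fewer cells of a type and less RNA per cell cannot be told apart. The part of these neuronal markers in the rises of Piezo2, Asic1, Asic3 and Tmem150c was not tested; pan-neuronal scaling shifts all genes alike and lowered the log2 fold changes of Piezo2, Asic3 and Tmem150c from 0.51, 0.45 and 0.42 to 0.25, 0.20 and 0.17.

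Markers of other cells of these cultures, among them cells in which Piezo1 is known to be used, are set beside its fall. In control ASO against untransfected cultures 10.5% of all tested genes were called higher and 13.7% lower. In ASO mix against control ASO these shares were 27.3% and 28.8%. Of the fibroblast markers 13 were tested: 0 were higher and 10 lower in control ASO against untransfected cultures (median -2.47), and 1 was higher and 7 lower in ASO mix against control ASO (median -1.10). Their summed level was 1487 to 2012 CPM in untransfected cultures, 429.8 to 593.6 CPM with the control ASO and 485.5 to 612.4 CPM with the ASO mix, the last sum being mostly Thy1, which neurons also express (468 ± 81.0 CPM). Of 15 tested Schwann cell markers 11 were lower in the first comparison (median -1.27) and 8 lower and 3 higher in the second (median -0.57), with sums of 1727 to 1807, 1293 to 1455 and 1436 to 1772 CPM. In the ASO mix that sum was mostly L1cam (844 ± 95.8 CPM), which neurons also express, and Pmp22 (588 ± 71.9 CPM). The 3 Schwann cell markers called higher with the ASO mix than with the control ASO were Pmp22 (0.44 ± 0.05), S100b (0.80 ± 0.09) and L1cam (0.25 ± 0.04). Among the 8 called lower, the transcription factor gene Sox10 went from 88.0 ± 21.8 CPM to 21.3 ± 9.62 and 3.16 ± 2.5 CPM. The neuregulin receptor gene Erbb3, also among them, went from 41.8 ± 11.9 to 21.6 ± 9.25 and 1.79 ± 0.880 CPM. The mural cell markers gave 4 lower of 8 in each of the 2 comparisons, with 0 and 1 higher. The satellite glia markers gave 5 and 4 lower and 1 higher in each of 10. Of 10 macrophage markers 2 were lower and 1 higher, and then 0 lower and 2 higher. The mean summed levels of the mural, satellite glia and macrophage markers were 390, 720 and 40.0 CPM in untransfected cultures. They were 142, 651 and 34 CPM with the control ASO, and 203.5, 739 and 57.3 CPM with the ASO mix. The last mural sum was mostly Rgs5 (183 ± 92.2 CPM). Glul (439 ± 109 CPM), the 1 satellite glia marker called higher there, made up most of the last satellite glia sum. Kcnj10, among the 4 called lower, went from 10.5 ± 1.71 to 4.31 ± 1.49 and 0.612 ± 0.122 CPM. The last macrophage sum was mostly Cd68 (41.8 ± 3.45 CPM), 1 of the 2 called higher. Every marker had counts in each group except the Schwann cell gene Mag, which was at 0 in all 4 control ASO libraries. The part of these cells in the Piezo1 result was not tested.

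The endothelial markers differed most between mice. Their summed level was 175 to 200.2 CPM in the 3 libraries of mouse 4 and 44.3 to 69.3 CPM in the 9 libraries of mice 1 to 3. Of the 10 markers 1 was higher and 1 lower in control ASO against untransfected cultures, beside 10.5% and 13.7% of all tested genes. In ASO mix against control ASO 0 were higher and 3 lower (median -0.27), beside 27.3% and 28.8% of all tested genes. In ASO mix against untransfected cultures 6 were lower and 1 higher (median -0.51), beside 31.1% and 30.1% of all tested genes. The 4 with the smallest p were Cdh5 at -0.74 ± 0.14 (adjusted p 0.000161), Egfl7 at 0.40 ± 0.08 (adjusted p 0.000378), Flt1 at -0.38 ± 0.08 (adjusted p 0.000598) and Pecam1 at -0.70 ± 0.18 (adjusted p 0.00356). Egfl7 was thus the 1 called higher. The sum was lower with the ASO mix than without transfection in each mouse, at 52.1 against 61.5, 50.2 against 69.3, 44.3 against 54.0 and 181 against 200.2 CPM in mice 1 to 4. Mouse 4 also had the lowest pan-neuronal sum of each group, at 8291, 9330 and 10930 CPM in untransfected, control ASO and ASO mix cultures. Its sum of mechanoreceptor and proprioceptor markers was lowest too, at 1530, 1719 and 2057 CPM. The same mouse had the highest Piezo1 and Tmem63a and the lowest Piezo2, Asic3 and Tmem63b of each group. The relation of this pattern to these marker sums was not tested. Without mouse 4, 7 channel genes were called in ASO mix against control ASO, as with it.

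**Figure D5:**
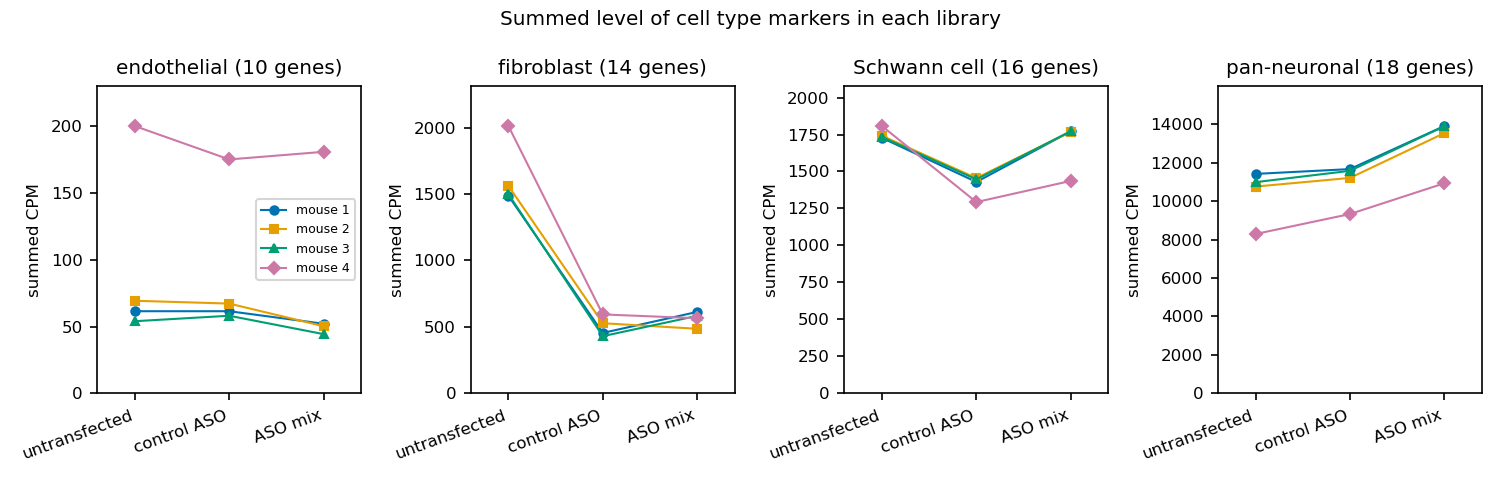
Summed CPM of 4 marker lists in the 12 libraries, by group, with a line for each mouse and axes from 0. Mouse 4 lies above the others for endothelial markers in all groups and below them for pan-neuronal markers, and the fibroblast sum falls between untransfected and control ASO cultures in every mouse.

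Across the 12 libraries, after each mouse's mean was subtracted, the channel genes fell into opposite courses. Piezo1 correlated with Tmem63a at r = 0.85 and with Piezo2 at r = -0.97, and Piezo2 correlated with Tmem63b at 0.99, Tmem150c at 0.98, Asic3 at 0.91 and Asic1 at 0.88, while Asic2 stayed between -0.47 and 0.50 with every other tested channel gene. These values describe 3 groups of cultures from 4 mice, share libraries and scaling factors, and carry no test. Over 11880 genes compared on the same measure, the 5 most like Piezo1 were Ccnd2 and Celf1 (0.997 each), Sos2 (0.995), Cdk19 and Cpsf3 (0.994 each). Among the 5 most like Piezo2 were Uqcrfs1 (0.994), Jph4, H2afx and Cadps2 (0.992 each).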

How the data were processed

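The authors deposited 1 table of whole-number counts per gene for all 12 libraries. Per the submitters' processing notes, bcl2fastq 2.17, STAR and HTSeq were used with build GRCm38/mm10; which annotation release was used, and how strand was counted, is not given in the sources used. Per the labels' protocols, total RNA was made into stranded libraries and read as 150-base pairs. Of 48795 IDs, 48435 matched a symbol in GENCODE M21, and the other 360 held at most 0.0308% of any library's counts.

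Counts were fitted with edgeR 4.0.16 under R 4.3.3 (filterByExpr, TMM, robust quasi-likelihood, group plus mouse over all 12 libraries, two-sided) and adjusted by Benjamini-Hochberg over 16831 genes, and the fit was tested on simulated data. Total counts were 16971091 to 22668448 in untransfected, 14864622 to 22704267 in control ASO and 16416459 to 21250125 in ASO mix libraries. The series' design text ties replicate numbers to mice; same-numbered libraries deviated together in all 12 pairs (r = 0.138 to 0.557), and each of 24 cases correlated best with its own number. No 2 libraries of a group agreed within sampling noise (chi-square per degree of freedom 5.16 to 24.9 over 18 pairs). RPKM used the union exon length of GENCODE M21, and log2 CPM used a prior count of 2. Alternatives included no mouse block, other scalings (DESeq2 1.42.0 size factors, library size, pan-neuronal markers, length and GC trends, rRNA loci left out), DESeq2's Wald test, limma 3.58.1 voom, other filters, a minimum fold of 1.5 and each replicate left out.

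The 9 channel genes, the 11 other lists and their tests were chosen with earlier results of these data known. All 9 are named; from each other list described, up to 4 genes with the smallest p in a comparison are named, and for likeness the 5 genes with the highest correlation, leaving out genes with only a clone or predicted-gene symbol; Ctu2, Asic4, Asic5, Mag, Sox10 and L1cam are named outside this rule, after their values were seen, and some genes that the rule selects are not reported here. Promoter windows are from RefSeq (GRCm38.p6).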

Additional observations from a re-analysis of the deposited data

Results flagged for a closer look

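Of 24 sets of 4 libraries (8 channel genes in 3 groups), 4 held a library whose gap to its nearest neighbour was large for the group's range; chance gives about 1 in 20. Asic1 in ASO mix mouse 3 was at 4.95 log2 CPM, above 4.54 to 4.58 in the other mice. Asic3 in control ASO mouse 4 was at 4.44 log2 CPM, below 4.97 to 5.06. Tmem63a in untransfected mouse 4 was at 3.73 log2 CPM, above 2.99 to 3.02. Tmem150c in control ASO mouse 2 was at 5.38 log2 CPM, just below 5.50 to 5.52.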

How the results depend on the processing

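Piezo1, Piezo2, Asic1, Asic3, Tmem63a and Tmem150c kept their direction and call in ASO mix against control ASO under the 16 alternatives that kept the rule of adjusted p under 0.05, with ranges of -1.37 to -0.996, 0.25 to 0.75, 0.27 to 0.58, 0.20 to 0.50, -0.85 to -0.48 and 0.17 to 0.52 (log2). With a fold of at least 1.5 also required, Piezo2, Asic1, Asic3, Tmem63b and Tmem150c lost their call in that comparison, and 2, 0 and 3 channel genes and 3490, 1379 and 4643 genes were called in ASO mix against control ASO, control ASO against untransfected and ASO mix against untransfected. With length and GC trends removed, 4 channel genes were called in control ASO against untransfected. Leaving out each replicate in turn gave 7 to 7, 2 to 3 and 7 to 8 channel genes and 7390 to 10217, 2540 to 3946 and 8857 to 10770 genes in the 3 comparisons; the count of 2540 was without replicate 3, and leaving out ASO mix replicate 4 alone, an alternative chosen after seeing the data, gave 5317 genes in control ASO against untransfected.

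Without the replicate block, control ASO against untransfected gave 1 channel gene and 2391 genes, since Piezo1 (-0.42) was no longer called; no other channel gene changed its call, Piezo2 in ASO mix against control ASO having adjusted p 0.049 in edgeR.

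Sign changes were within uncalled values except for Tmem63b under pan-neuronal scaling (-0.022 against control ASO and -0.10 against untransfected, adjusted p 0.722 and 0.0857). Asic2 in ASO mix against control ASO was at 0.002 with DESeq2 size factors and with DESeq2's Wald test, 0.005 without rRNA loci, 0.014 without replicate 1 and 0.02 without replicate 3, its values without each replicate running from -0.05 to 0.02, and at -0.068 without ASO mix replicate 4 alone. In control ASO against untransfected, pan-neuronal scaling put Piezo2 at -0.057, Tmem150c at -0.054 and Tmem63b at -0.077; leaving out replicate 4 put Piezo2 at -0.025, Tmem150c at -0.049, Tmem63a at 0.041 and Tmem63b at -0.023, where the other ends of the leave-one-out ranges were 0.048, 0.075, -0.111 and 0.018. Tmem63a was also at 0.001 with library size alone and 0.003 without replicate 1. Tmem63b was also at -0.03 with trends removed, -0.01 without rRNA loci, -0.006 with no filter, -0.008 with only the 2 groups, -0.001 without replicate 3 and -0.008 without ASO mix replicate 4. Tmem150c in ASO mix against untransfected lost its call under pan-neuronal scaling (0.11, adjusted p 0.149). Asic2 was called lower in 5 alternatives for control ASO against untransfected, 7 for ASO mix against untransfected and 1 for ASO mix against control ASO (pan-neuronal scaling, -0.27, adjusted p 0.00145). The causes of these changes were not tested. Depth limits Stoml3, whose unfiltered fit gave adjusted p of 0.799 to 0.92.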
